A study of Mus musculus with 12 samples.

Results

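The genes described here are 8 genes of the early mouse endoderm, Gata4, Gata6, Sox7, Sox17, Foxa2, Dab2, Sparc and Pdgfra, measured in embryonic stem cells of the mouse that carried or lacked the transcription factor Tcf3. Every probe set annotated to just 1 of these symbols was taken, which gave 20 of the 45037 probe sets tested. The Tcf3 of the labels is now called Tcf7l1, and it represses genes in the absence of Wnt signals. The groups were Tcf3-/- (knockout) cells with Wnt3a, Tcf3-/- cells in control medium, Tcf3+/+ (wild-type) cells with Wnt3a and Tcf3+/+ cells in control medium, with 3 arrays each. Wnt3a was recombinant protein at 50 ng/ml for 24 h, and all cells grew without feeders on gelatin in medium with 15% fetal bovine serum and 1000 U/ml Lif, a cytokine that holds stem cells undifferentiated. The labels give neither the cell line, nor whether a genotype is 1 clone, nor whether replicates are separate cultures. Any other way in which the cells of the 2 genotypes differ cannot be told apart from the missing Tcf3, and the p-values reflect array-to-array spread that may be technical.

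In the early embryo the inner cell mass divides into epiblast, from which embryonic stem cells are derived, and primitive endoderm, which later forms the extraembryonic endoderm of the yolk sac. The zinc-finger factor Gata6 starts the endoderm programme, and Gata4 and the SoxF factors Sox17 and Sox7 follow. Pdgfra, a receptor for platelet-derived growth factor, marks primitive endoderm early, Dab2 is an endocytic adaptor of endoderm cells, and Sparc is a matrix glycoprotein made in bulk by parietal endoderm. Foxa2 is a forkhead factor better known from definitive and visceral endoderm. A few cells of a stem cell culture may enter this programme on their own. An array of bulk RNA cannot tell more cells of a type from more RNA per cell, and this holds for every value below. Pdgfra and Sparc are also expressed in mesoderm and in fibroblasts.

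Values are the log2 of the deposited intensities. A change is knockout minus wild type or Wnt3a minus control, as group means, with its standard error (SE) from limma fitted to the 12 arrays, and a probe set's call is an adjusted p under 0.05 by the Benjamini-Hochberg method over all 45037. Values of an array triplet are given in the order of arrays 1, 2 and 3. Levels are compared within a probe set and not between probe sets. A level of 5.56, the 40th percentile of all values, served as a floor, since no detection calls were used here. Of the 20 probe sets, 11 lay above the floor on all 12 arrays and 15 on at least 3, while 4 had a mean under it in every group. Those 4 were 1443081_at of Gata6, 1432495_at of Sox7, 1429693_at of Dab2 and 1438946_at of Pdgfra.

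The identity of the cells was read from marker lists and the targeted gene. The 10 stem cell markers summed, on the linear scale, to 106241 to 112036 on knockout Wnt3a arrays, 103886 to 105730 on knockout control arrays, 96097 to 102572 on wild-type Wnt3a arrays and 82034 to 88111 on wild-type control arrays. Tcf7l1 (1436207_at) read 8.89 to 9.22 on knockout and 10.21 to 10.5 on wild-type arrays with Wnt3a, and 9.37 to 9.58 on knockout and 10.77 to 10.9 on wild-type arrays in control medium, so that it was lower in the knockout without being at the floor. Of 12 trophectoderm markers, 5 were called lower and 1 higher in knockout cells with Wnt3a, and 6 lower and none higher in control medium. Their linear sums, which the keratin genes Krt8 and Krt18 dominated in wild-type cells, were 1887 to 2004 on knockout Wnt3a arrays, 1797 to 2264 on knockout control arrays, 16353 to 19778 on wild-type Wnt3a arrays and 20760 to 34085 on wild-type control arrays, and the part of these genes in the results below was not tested. The actin 3'-5' difference, a sign of RNA quality, was 0.36 to 0.41 on knockout and 0.24 to 0.27 on wild-type arrays with Wnt3a, and 0.31 to 0.41 on knockout and 0.18 to 0.24 on wild-type arrays in control medium, and its part was not tested either. The dap transcript, a bacterial control added to the RNA during preparation, read 11.6 to 11.82 on the 6 Wnt3a arrays and 4.35 to 4.48 on the 6 control-medium arrays. A further bacterial control, bioB, read 8.53 to 8.99 on the Wnt3a arrays and 6.12 to 6.52 on the control-medium arrays. The effect of the medium cannot be told apart from that of the preparation, and a Wnt3a effect below is the difference between arrays that differ in both.

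Of the 8 genes, RefSeq promoter sequences (assembly GRCm38.p6) were at hand for Foxa2, Pdgfra, Sparc and Dab2. Those of Pdgfra and Dab2 are shown because Pdgfra carried the most calls and Dab2 the widest spread in the results below. Each window holds the 250 bases before an annotated start, 5′ to 3′ on the gene's strand. Capitals mark CTTTG, the core of Tcf/Lef binding sites, and the GATA words, which are AGATAA or its form AGATAG and TGATAA or its form TGATAG, all on either strand (CAAAG is the core read from the other strand). That start of Pdgfra lies inside the gene's annotated span. The Pdgfra window is chr5:75152001-75152250 on the plus strand, and the Dab2 windows, before each of 2 starts, are chr15:6299539-6299788 and chr15:6386498-6386747 on the plus strand.
Pdgfra: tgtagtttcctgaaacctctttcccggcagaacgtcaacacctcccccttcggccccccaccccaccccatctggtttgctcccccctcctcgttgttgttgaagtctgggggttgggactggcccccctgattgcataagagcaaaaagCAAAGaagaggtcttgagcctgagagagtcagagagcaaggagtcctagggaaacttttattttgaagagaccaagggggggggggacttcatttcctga
Dab2, first start: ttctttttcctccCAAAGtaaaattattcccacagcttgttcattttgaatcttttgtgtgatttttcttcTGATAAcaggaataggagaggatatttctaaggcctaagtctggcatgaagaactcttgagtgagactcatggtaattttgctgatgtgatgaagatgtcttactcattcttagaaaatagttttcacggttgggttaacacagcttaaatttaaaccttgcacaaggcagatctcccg
Dab2, second start: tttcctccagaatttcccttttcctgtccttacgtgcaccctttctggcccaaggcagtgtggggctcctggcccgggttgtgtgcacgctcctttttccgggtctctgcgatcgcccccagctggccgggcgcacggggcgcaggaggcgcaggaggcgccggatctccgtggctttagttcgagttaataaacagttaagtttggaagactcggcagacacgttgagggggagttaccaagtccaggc
The Pdgfra window held 1 CTTTG core and no GATA word, the first Dab2 window 1 of each, and the second neither. Of 32851 promoter windows of the same length, 48.6% held the core and 26.5% a GATA word. A longer Tcf/Lef word (the core followed by AT, by TT, by AA or by TA) was found in 14.8% of all windows and in none of these 3.

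The 3 knockout arrays in control medium stood apart from one another in these genes, and this bears on every comparison that uses them. Dab2 (1420498_a_at) read 7.19, 10.25 and 8.67 on the knockout control arrays, an 8.39-fold range. On that probe set array 1 was the lowest and array 2 the highest of the 12 arrays of the study. Sox17 (1429177_x_at) read 5.48, 8.31 and 6.78 there, a 7.07-fold range, and Pdgfra (1421917_at) 5.98, 8.0 and 7.02, a 4.06-fold range. Gata6 (1425464_at) read 6.27, 7.95 and 7.19, Sox7 (1416564_at) 6.23, 7.60 and 6.77, and Gata4 (1418863_at) 6.17, 7.22 and 6.40. In 17 of the 20 probe sets array 1 was lowest and array 2 highest, and in 15 array 2 was the highest of all 12 arrays, which was so for 7.54% of all probe sets. The 3 exceptions to the order were 1432495_at of Sox7, which was under the floor, and 1416589_at and 1448392_at of Sparc, on which array 3 was lowest.

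**Figure D1:**
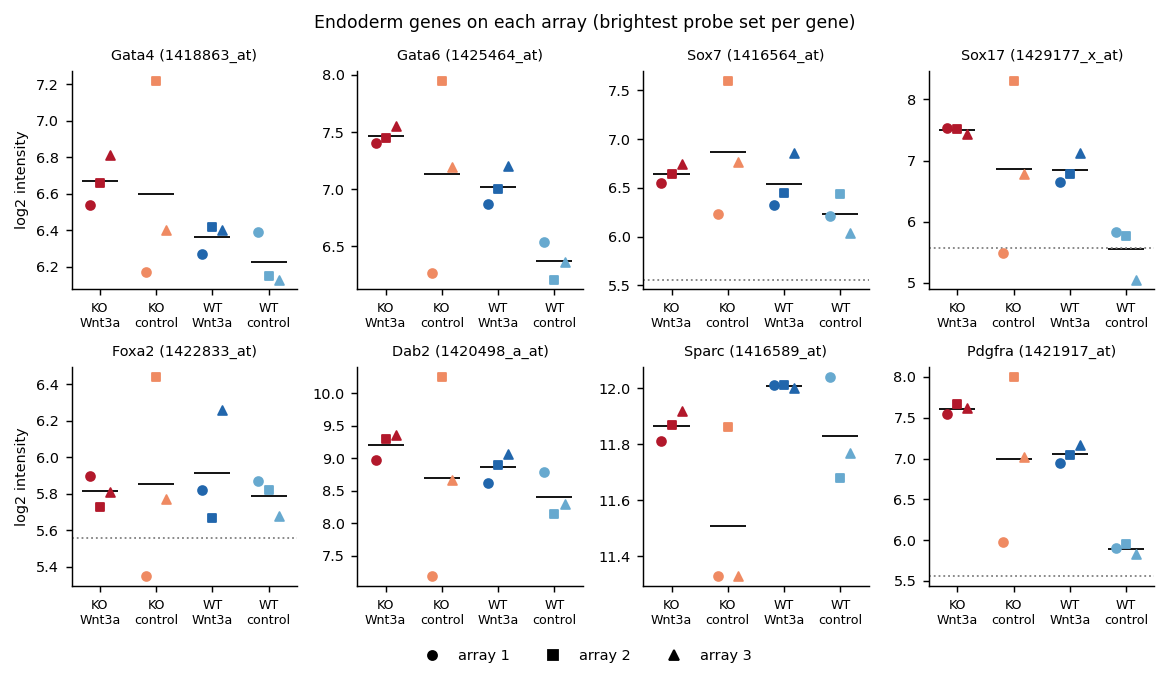
Log2 intensity of the brightest probe set of each of the 8 genes on the 12 arrays, by group (KO, Tcf3-/-; WT, Tcf3+/+). Points are single arrays, marked by replicate number, bars are means of 3 arrays, and the dotted line, where in view, is the floor of 5.56. Each panel has its own axis, and the KO control arrays spread further than any other group in all 8 panels, with array 2 the highest of the 12 in 7 of them, Sparc being the exception.

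Outside the untreated knockout cells the same probe sets spread less by their median, though more than all probe sets did. The median range of the 20 over 3 arrays was 0.22 on knockout Wnt3a arrays, 1.07 on knockout control arrays, 0.24 on wild-type Wnt3a arrays and 0.31 on wild-type control arrays. The median range of all probe sets was 0.20, 0.18, 0.19 and 0.17 in the same groups. Of all 45037 probe sets only 95 (0.211%) had a range of at least 1 among the knockout control arrays, and 11 of those 95 were among the 20 endoderm probe sets. In the other 3 groups none of the 20 reached that range, against 0.369%, 0.371% and 0.171% of all probe sets in knockout Wnt3a, wild-type Wnt3a and wild-type control arrays. The level of 1 was chosen after the values were seen. Of the 95 probe sets, 75 (78.9%) were lowest on array 1 and highest on array 2, an order that 17.1% of all probe sets had.

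**Figure D2:**
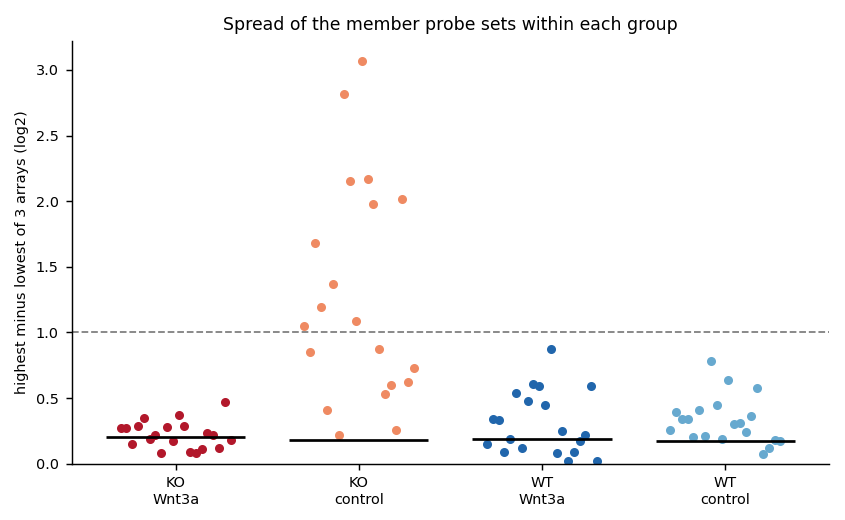
Range, as highest minus lowest of 3 arrays on the log2 scale, of each of the 20 probe sets in each group. The short black lines are the median range of all 45037 probe sets, and the dashed line marks a range of 1. Among the KO control arrays 11 points lie above it, and none in the other groups.

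Most further genes of a list of the extraembryonic endoderm were also highest on array 2. In a list of 36 further extraembryonic endoderm genes, 35 were matched, and 28 of them were highest on array 2 of the 3 knockout control arrays, against 28.5% of all 18193 named genes. Array 2 exceeded the higher of the other 2 by at least 1 for 10 of the 35, against 0.148% of all named genes. The list was chosen with earlier results of these data known, so these shares are a description and not independent support. Cubn, the endocytic receptor cubilin of visceral endoderm, read 6.56, 9.85 and 8.24 on the knockout control arrays. Its partner Amn read 7.84, 9.64 and 8.30. Srgn, a proteoglycan gene active in parietal endoderm, read 7.62, 10.93 and 9.25. The basement membrane genes Col4a1 (8.76, 10.93 and 9.32) and Lama1 (8.41, 10.23 and 8.88), and the collagen chaperone gene Serpinh1 (8.27, 10.25 and 8.77), were likewise lowest on array 1 and highest on array 2. Other genes of the list broke this order. The basement membrane genes Nid1 (10.73, 10.59 and 10.43) and Nid2 (11.28, 11.16 and 11.12) were highest on array 1. Cited1 (6.2, 7.33 and 6.12) was lowest on array 3. These genes were named after their values were seen. Ranked by the excess of array 2 over 16338 named genes, Dab2 was in place 6, Sox17 in place 7, Pdgfra 28, Sox7 37, Gata4 38, Gata6 43, Foxa2 53 and Sparc 86, and the first place was that of Ctsh, a lysosomal protease gene.

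Marker lists of other cell types held no gene with so large an excess. Of 19 definitive endoderm genes 3 were highest on array 2 and none by 1 or more. The lists of fibroblast, mesoderm, trophectoderm, endothelial and stem cell markers had no gene with an excess of 1 either. Since 0.148% of all named genes had one, lists this short would mostly hold none. The 15 fibroblast markers summed to 10508, 9832 and 9821 on knockout control arrays 1, 2 and 3, and Col3a1, Lum and Prrx1 were under the floor in every group. The trophectoderm markers summed to 1797, 2264 and 1963, highest on array 2. The stem cell markers summed to 105385, 105730 and 103886 on the same arrays. The actin 3'-5' difference was 0.32, 0.41 and 0.31, so that it was highest on array 2, and its part in these values was not tested.

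**Figure D3:**
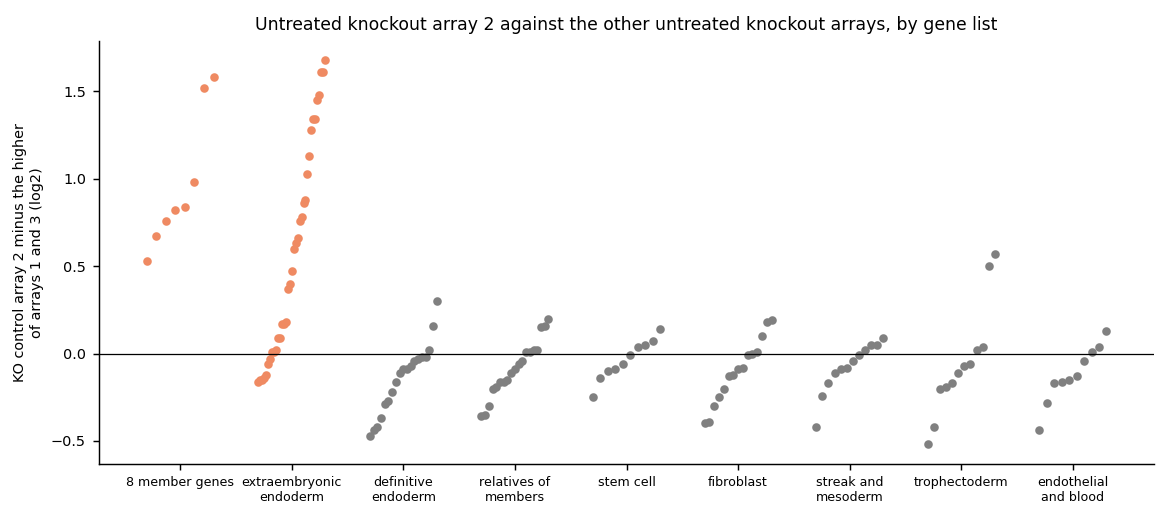
Excess of KO control array 2 over the higher of KO control arrays 1 and 3, on the log2 scale, for the 8 genes, the further extraembryonic endoderm genes and 7 other lists, each gene by its brightest probe set. All 8 member genes lie above 0, from 0.53 to 1.58, and outside the first 2 columns no gene reaches 1.

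Without added Wnt3a, Tcf3-/- cells were set against Tcf3+/+ cells. Of the 20 probe sets 1 was higher and none lower, where 11.3% of all probe sets were higher and 11.8% lower, 23.2% in all. That share of the endoderm probe sets was below the background. The median difference was 0.37 over the 20 and 0.02 over all probe sets. The 20 come from 8 genes, and 17 of them were highest on knockout array 2 of the 3 knockout arrays. Their differences are therefore not independent of one another or of that array. The receptor gene Pdgfra gave the call. Its probe set 1421917_at read 5.98, 8.0 and 7.02 on knockout arrays, against 5.90, 5.95 and 5.83 on wild-type arrays. All knockout arrays lay above all wild-type arrays although array 1 did so narrowly. The difference was 1.10 ± 0.33 SE, a 2.14-fold rise (limma adjusted p = 0.0259). This call did not hold without knockout control array 2 (0.60, adjusted p = 0.0678) or array 3 (0.0685), without any 1 of the wild-type control arrays (adjusted p 0.0558 to 0.0771), or when just these 6 arrays were fitted (0.0636). In that fit the dimmer probe set 1421916_at passed instead (0.44, adjusted p = 0.0405), where 11.8% of all were higher and 12.3% lower, 24.1% in all, but both of its group means were no higher than the floor.

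The transcription factors had larger means in untreated knockout cells, without a call. Sox17 (1429177_x_at) averaged 6.86 ± 1.41 in knockout and 5.55 ± 0.43 in wild-type cells (SD, n = 3 each), a fitted difference of 1.31 ± 0.48 SE (limma adjusted p = 0.0668). The wild-type mean was just under the floor, so that as a fold this was at least 2.46, or at least 1.64 with a floor of 6.14. Knockout array 1, at 5.48, lay within the wild-type arrays (5.83, 5.76 and 5.05), whereas arrays 2 and 3 lay above them. Gata6 (1425464_at) differed by 0.77 ± 0.28 (adjusted p = 0.07), with 6.27, 7.95 and 7.19 on knockout and 6.54, 6.21 and 6.36 on wild-type arrays. The differences were smaller on Sox17 1421657_a_at (0.81, limma adjusted p = 0.154) and on Gata6 1425463_at (0.36, 0.289). Sox7 differed by 0.64 (adjusted p = 0.0934) and Gata4 by 0.37 (0.221) on their brighter probe sets. Foxa2 averaged 5.85 in knockout and 5.79 in wild-type cells, close to the floor, and differed by 0.06 ± 0.21. In all of these the groups overlapped, since knockout array 1 was no higher than the highest wild-type array.

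Without knockout control array 1, 12 of the 20 probe sets were called higher. Of all probe sets 8.81% were then higher and 10.8% lower, 19.6% in all. The 12 came from Gata4, Gata6, Sox7, Sox17, Dab2 and Pdgfra. They included 1429693_at of Dab2 (0.55) and 1438946_at of Pdgfra (0.44), whose means over all arrays were under the floor in every group. Sox17 then differed by 2.00 (limma adjusted p = 0.00134) and Gata6 by 1.20 (0.000517). Without knockout control array 2 there was a single call in the other direction, Sparc (1416589_at) at -0.50 (adjusted p = 0.00295), where 10.2% of all probe sets were higher and 9.76% lower, 19.9% in all. Without array 3 there was none, where 9.49% were higher and 9.92% lower, 19.4% in all. The number of calls and their direction thus depended on which untreated knockout array was kept.

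The endocytic adaptor gene Dab2 and the matrix gene Sparc gave no call in this comparison over 12 arrays. Dab2 (1420498_a_at) read 7.19, 10.25 and 8.67 on knockout arrays and 8.79, 8.14 and 8.30 on wild-type arrays, so that the knockout arrays lay on both sides of the wild-type ones. The difference was 0.29 ± 0.51 SE (limma adjusted p = 0.778). Sparc (1416589_at) read 11.33, 11.86 and 11.33 on knockout and 12.04, 11.68 and 11.77 on wild-type arrays, a difference of -0.32 ± 0.13 (adjusted p = 0.0941). With an intensity trend in the fit Sparc was called lower (adjusted p = 0.046), and Sox17 1429177_x_at (0.0372), Gata6 1425464_at (0.0433) and Gata4 1418864_at (0.0462) were called higher beside Pdgfra. Its other probe sets differed by -0.16 (1448392_at) and 0.16 (1458204_at).

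**Figure D4:**
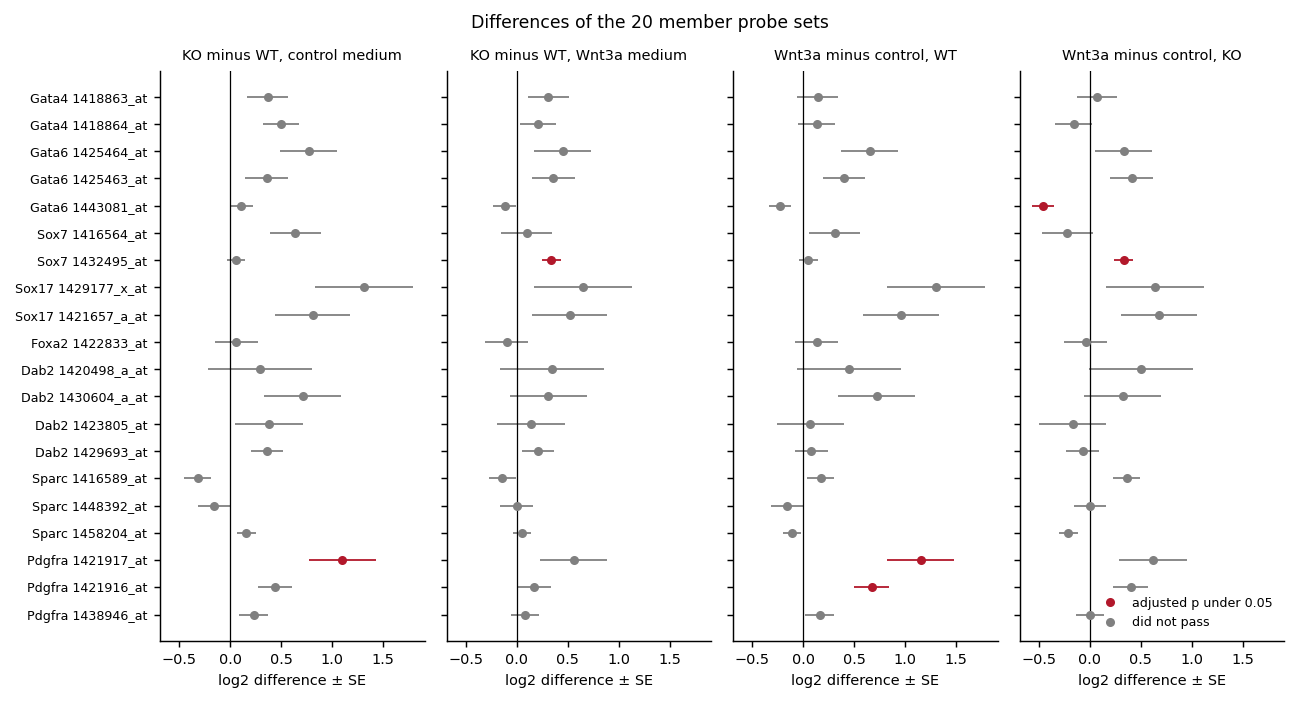
Log2 differences of the 20 probe sets in the 4 pairwise comparisons, with bars of 1 SE from the limma fit over 12 arrays. Red points passed an adjusted p of 0.05. Pdgfra 1421917_at passed for KO minus WT in control medium and for Wnt3a minus control in WT, where Pdgfra 1421916_at passed too. The other red points are of probe sets under the floor. Sox7 1432495_at passed for KO minus WT with Wnt3a and for Wnt3a minus control in KO. Gata6 1443081_at passed left of 0 for Wnt3a minus control in KO. Most Sox17 and Gata6 differences lie right of 0, without a call.

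The Wnt3a effect in wild-type cells compares arrays that did not share the spread of the untreated knockout cells. Here 2 of the 20 probe sets were called higher, where 15.3% of all were higher and 16.1% lower, 31.4% in all. Both were of Pdgfra. Probe set 1421917_at read 6.95, 7.04 and 7.17 with Wnt3a, against 5.90, 5.95 and 5.83 in control medium. The media did not overlap, and the arrays of each lay close together. The rise was 1.15 ± 0.33 SE, or 2.22-fold (limma adjusted p = 0.0169). Probe set 1421916_at rose at least 1.17-fold (fitted difference 0.67 ± 0.17, adjusted p = 0.00929), with 5.46, 6.05 and 5.86 with Wnt3a against 5.23, 5.05 and 5.06, all 3 of which were under the floor. The third Pdgfra probe set was under the floor in both media. The call of 1421917_at was lost without wild-type control array 3 (adjusted p = 0.0522).

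Sox17 and Gata6 parted in wild-type cells without overlap but did not pass in the fit over 12 arrays. Sox17 (1429177_x_at) read 6.64, 6.78 and 7.12 with Wnt3a and 5.83, 5.76 and 5.05 in control medium, a fitted difference of 1.30 ± 0.48 SE (limma adjusted p = 0.054), or at least 2.44-fold against the floor. Its probe set 1421657_a_at read 6.47, 6.85 and 7.09 with Wnt3a and 6.13, 5.68 and 5.70 in control medium, a difference of 0.96 ± 0.37 (adjusted p = 0.0651). Gata6 (1425464_at) read 6.87, 7.0 and 7.20 with Wnt3a and 6.54, 6.21 and 6.36 in control medium, a difference of 0.65 ± 0.28 (adjusted p = 0.0993). In all, 8 of the 20 probe sets were higher without overlap, against 22.7% of all probe sets, and 2 were lower, against 23.1%. The 2 lower ones were 1443081_at of Gata6, under the floor, and 1458204_at of Sparc (-0.11).

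The spread in this fit is shared by all 4 groups, and so the knockout control arrays entered the error of a comparison between wild-type arrays. With only the 6 wild-type arrays fitted, 7 of the 20 probe sets were called higher and none lower, where 14.4% of all were higher and 15.1% lower, 29.5% in all. The 7 were both Sox17 probe sets (1.30 ± 0.21 SE, adjusted p = 0.00236, and 0.96 ± 0.17, adjusted p = 0.00391), Gata6 1425464_at (0.65 ± 0.11, 0.00363) and 1425463_at (0.40, 0.0146), Dab2 1430604_a_at (0.72, 0.0225) and 2 of Pdgfra, all by limma. Dab2 1420498_a_at, the brightest probe set of that gene, read 8.62, 8.90 and 9.06 with Wnt3a and 8.79, 8.14 and 8.30 in control medium, so that the media overlapped (0.45 ± 0.51 SE over 12 arrays). With all groups fitted but without knockout control array 1 or array 2, 6 were called higher and none lower, and either way 15.1% of all were higher and 15.8% lower, 30.9% in all. Without array 3 the calls were the 2 of Pdgfra, where 14.5% were higher and 15.2% lower, 29.7% in all. Gata4 (0.14) and Sox7 (0.31) overlapped between media, as did Foxa2 (0.13).

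In knockout cells with Wnt3a the genes were level between arrays. Pdgfra (1421917_at) read 7.55, 7.67 and 7.62, Sox17 (1429177_x_at) 7.53, 7.52 and 7.44, and Gata6 (1425464_at) 7.40, 7.45 and 7.55. These values lay within the range of the knockout arrays in control medium for each gene. The Wnt3a effect in knockout cells was 0.62 ± 0.33 SE for Pdgfra (limma adjusted p = 0.202), 0.64 ± 0.48 for Sox17 (0.371) and 0.33 ± 0.28 for Gata6 (0.449). Of the 20 probe sets 1 was called higher and 1 lower, where 10.8% of all were higher and 11.2% lower, 22.1% in all. Both were on probe sets whose means were under the floor in either medium, 1432495_at of Sox7 (0.33, adjusted p = 0.0175) and 1443081_at of Gata6 (-0.46, adjusted p = 0.011), and have no fold. The Sox7 call did not hold with knockout control array 2 (0.0719) or knockout Wnt3a array 3 (0.0648) left out, nor the Gata6 call with knockout Wnt3a array 2 left out (0.0515). They were also the 2 calls with just the 6 knockout arrays fitted, where 8.91% of all were higher and 9.94% lower, 18.8% in all.

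Without knockout control array 2, 10 of the 20 probe sets were called higher with Wnt3a and 1 lower, where 8.14% of all were higher and 9.69% lower, 17.8% in all. Pdgfra then differed by 1.12 (limma adjusted p = 0.00429), Sox17 by 1.37 (0.0113), Dab2 by 1.28 (0.0203), Gata6 by 0.73 (0.0289) and Sparc 1416589_at by 0.53 (0.00361). Without array 1 the calls were 1 higher and 2 lower, where 8.62% of all were higher and 7.85% lower, 16.5% in all. Of the 2 lower, 1 was Sparc 1458204_at (-0.3, limma adjusted p = 0.0359). The Sparc probe sets did not share a sign, at 0.36 (1416589_at), 0 (1448392_at) and -0.21 (1458204_at) over 12 arrays, without a call. Without array 3 they were 1 higher and 1 lower, where 6.73% of all were higher and 7.11% lower, 13.8% in all.

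The knockout effect in Wnt3a medium sets knockout arrays against wild-type arrays that both had the ligand. Of the 20 probe sets, 9 were higher on all knockout arrays than on all wild-type arrays and 1 was lower, against 14.7% and 15% of all probe sets. Of the 9, 3 had both means under the floor, namely 1432495_at of Sox7 and 1423805_at and 1429693_at of Dab2. Sox17 (1429177_x_at) read 7.53, 7.52 and 7.44 in knockout and 6.64, 6.78 and 7.12 in wild-type cells, a difference of 0.65 ± 0.48 SE (limma adjusted p = 0.426). Pdgfra (1421917_at) read 7.55, 7.67 and 7.62 in knockout and 6.95, 7.04 and 7.17 in wild-type cells, a difference of 0.56 ± 0.33 (adjusted p = 0.303). Gata6 (1425464_at) differed by 0.45 ± 0.28 (adjusted p = 0.35), and Gata4 (1418863_at), at 6.54, 6.66 and 6.81 against 6.27, 6.42 and 6.40, by 0.31 ± 0.20 (adjusted p = 0.355). The 1 call over 12 arrays was 1432495_at of Sox7, under the floor, where 6.63% of all probe sets were higher and 7.76% lower, 14.4% in all. It did not hold once array 2 (adjusted p = 0.0612) or array 3 (0.0542) of the wild-type Wnt3a group was left out, or array 3 of the knockout Wnt3a group (0.0691).

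With only the 6 Wnt3a arrays fitted, 5 probe sets were called higher and none lower, where 4.07% of all were higher and 5.63% lower, 9.7% in all. Besides 1432495_at of Sox7 these were Pdgfra 1421917_at (0.56 ± 0.08 SE, limma adjusted p = 0.00556), Sox17 1429177_x_at (0.65 ± 0.12, 0.0144), Gata6 1425464_at (0.45 ± 0.10, 0.0291) and Gata6 1425463_at (0.36 ± 0.09, 0.0463). Sparc (1416589_at) was the probe set that was lower without overlap, at 11.81, 11.87 and 11.92 in knockout and between 12 and 12.01 on the 3 arrays of wild-type cells, a difference of -0.14 that did not pass (adjusted p = 0.544). Dab2 (1420498_a_at) read 8.98, 9.29 and 9.35 in knockout and 8.62, 8.90 and 9.06 in wild-type cells, which overlapped.

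The response to Wnt3a of knockout cells, less that of wild-type cells, was tested as an interaction. No probe set of the 20 passed by limma, where 0.85% of all were higher and 1.02% lower, 1.87% in all, and 1 of the 20 had an unadjusted p under 0.05, against 15.8% of all probe sets. That one was 1432495_at of Sox7, under the floor in every group. The interaction was -0.54 ± 0.46 SE for Pdgfra (1421917_at), -0.66 ± 0.68 for Sox17 (1429177_x_at) and -0.32 ± 0.40 for Gata6 (1425464_at). A difference in response between the genotypes was therefore not shown, and the SE leaves room for one.

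By group mean, Pdgfra (1421917_at) stood at 7.61 ± 0.06 in knockout cells with Wnt3a, 7.0 ± 1.01 in untreated knockout cells, 7.05 ± 0.11 in wild-type cells with Wnt3a and 5.90 ± 0.06 in untreated wild-type cells (SD, n = 3 each). Sox17 (1429177_x_at) stood at 7.50 ± 0.05, 6.86 ± 1.41, 6.85 ± 0.25 and 5.55 ± 0.43 in these groups in that order. Gata6 (1425464_at) stood at 7.47 ± 0.08, 7.14 ± 0.84, 7.02 ± 0.17 and 6.37 ± 0.17. For these 3 genes the highest mean was in knockout cells with Wnt3a and the lowest in untreated wild-type cells. For all 3 the middle groups did not differ beyond their spread, since the untreated knockout arrays reached below and above the wild-type Wnt3a arrays. On their brightest probe sets Gata4 (6.67 and 6.22) and Dab2 (9.21 and 8.41) also had their highest and lowest means in these 2 groups. Sox7, Foxa2 and Sparc were ordered differently on theirs. Sox7 had its highest mean in untreated knockout cells (6.87 ± 0.69, against 6.64 ± 0.10 in knockout cells with Wnt3a), and Foxa2 in wild-type cells with Wnt3a (5.92 ± 0.30). Sparc had its highest mean in wild-type cells with Wnt3a (12.01 ± 0.01) and its lowest in untreated knockout cells (11.51 ± 0.31).

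By the correlation of log2 values over the 12 arrays, given as a description of likeness among 13107 other genes, Gata6, Sox17 and Pdgfra were each among the 2 nearest genes of another member. Sox17 was most like Pdgfra (0.979) and Gata6 (0.968). The genes most like Pdgfra were Sox17 (Pearson r = 0.979) and Gata6 (0.972). Those most like Gata6 were Pdgfra (0.972) and Cubn (0.97), and those most like Gata4 were Ctsh (0.98) and Amn (0.964). Dab2 was most like Pth1r (0.949), a parathyroid hormone receptor gene of parietal endoderm, and Hs3st1 (0.943). Sox7 was most like Eva1a (0.914) and Tfec (0.913). Foxa2 was most like Caskin1 (0.886) and Glipr1 (0.844), and Sparc most like Grina (0.948) and Rasl10b (0.931). The points share the 4 groups, and much of their spread comes from the same 3 knockout control arrays.

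The further extraembryonic endoderm genes went both ways between genotypes. In control medium 11 of 35 were higher in knockout cells and 9 lower, where 14% of all named genes were higher and 16% lower, with a median difference of 0.13 against 0.02 for all genes. Cubn averaged 8.22 in knockout and 6.03 in wild-type cells, a 4.56-fold rise (2.19 ± 0.56 SE, limma adjusted p = 0.0111). The size rested on single arrays, at 3.02 without knockout control array 1 (adjusted p = 0.000172) and 1.37 without array 2 (0.0288). The transcription cofactor gene Cited1 was 6.34-fold lower (adjusted p = 8.28e-05), and the tissue factor gene F3 6.02-fold lower (adjusted p = 4.23e-06). The collagen gene Col4a2 averaged 8.50 in knockout and 9.59 in wild-type cells and did not pass (-1.09, adjusted p = 0.0849), but did without knockout control array 2 (-1.75, adjusted p = 0.000371) and with an intensity trend (0.0491). With Wnt3a in both genotypes 6 of 35 were higher and 6 lower in knockout cells, where 8.72% and 9.59% of all named genes were. F3 was 4.87-fold, Cited1 4.13-fold and the endocytic receptor gene Lrp2 2.71-fold lower (adjusted p = 0.00462 for Lrp2). Srgn averaged 9.85 in knockout and 8.50 in wild-type cells with Wnt3a and did not pass over 12 arrays (1.35, adjusted p = 0.164), but did with only the arrays compared (0.0271) and without knockout control array 1 (0.0497) or 2 (0.047).

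In the same list 9 of 35 genes were higher and 1 lower with Wnt3a in wild-type cells, where 14.9% and 18% of all named genes were, and 13 were higher and 3 lower with only the wild-type arrays fitted. In knockout cells 1 was higher and 1 lower with Wnt3a, where 10.4% and 11.3% of all named genes were, and 11 were higher and 1 lower without knockout control array 2.

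Of 19 definitive endoderm genes 2 were higher and 6 lower in control medium, where 14% of all named genes were higher and 16% lower, and 1 was higher and 5 lower with Wnt3a, where 8.72% and 9.59% were. With Wnt3a against control medium, 0 were higher and 6 lower in knockout cells, where 10.4% and 11.3% of all named genes were, and 1 was higher and 6 lower in wild-type cells, where 14.9% and 18% were. The keratin gene Krt19 averaged 6.66 in knockout and 11.07 in wild-type cells in control medium (21.4-fold lower, limma adjusted p = 9.68e-08). The claudin gene Cldn6 was 5.85-fold lower, and Trh, a thyrotropin-releasing hormone gene that is also on in embryonic endoderm, was 2.81-fold higher. Otx2 did not pass there (-0.46, adjusted p = 0.365). With Wnt3a in both genotypes Krt19 was 10.4-fold, Cldn6 5.36-fold and the cadherin gene Cdh2 2.40-fold lower in knockout cells, and Prdm1 did not pass (0.45, adjusted p = 0.0672), except without knockout Wnt3a array 1 (0.62, 0.00766) and with the replicate number as a block (0.0468). Cxcr4, Gsc, Lhx1, Nkx2-1 and Pdx1 were under the floor in every group.

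Of 19 relatives of the members and genes of the PDGF pathway, 4 were higher and 7 lower in control medium (14% and 16% of all named genes), and 2 higher and 5 lower with Wnt3a (8.72% and 9.59%). With Wnt3a against control medium, 1 was higher and 3 lower in knockout cells (10.4% and 11.3% of all named genes), and 2 were higher and 6 lower in wild-type cells (14.9% and 18%). Pdgfb, which encodes a ligand of the PDGF receptors, averaged 7.22 in knockout and 9.43 in wild-type cells in control medium (4.62-fold lower, limma adjusted p = 3.27e-06) and was 2.56-fold lower with Wnt3a in both genotypes. Sox18, the remaining SoxF factor, was 2.03-fold lower in control medium, and Gata3, a trophectoderm factor, at least 1.80-fold lower. With Wnt3a in both genotypes Gata3 was at least 1.17-fold lower (adjusted p = 0.0169), a call that did not hold with only the arrays compared (0.0673) and without wild-type Wnt3a array 1 (0.0736) or 2 (0.0506) or knockout Wnt3a array 2 (0.0595). The adaptor gene Dab1, a relative of Dab2, averaged 8.12 in knockout and 6.91 in wild-type cells with Wnt3a (2.32-fold higher, adjusted p = 0.000626). The ligand gene Pdgfc averaged 11.43 in knockout and 10.70 in wild-type cells in control medium and narrowly missed the threshold (0.73, adjusted p = 0.0514), with a call under several of the alternatives, such as only the arrays compared (0.00377). In Wnt3a medium Pdgfc differed by 0.51 (adjusted p = 0.21), and by 0.80 without knockout Wnt3a array 1 (0.0358).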

How the data were processed

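Expression was measured in 12 samples of mouse embryonic stem cells on Affymetrix arrays. The authors deposited intensity values of 45101 probe sets on a linear scale, and the submitters' processing notes name RMA but give no version for it. Median intensities per array were 68.3 to 73.4. The number of arrays limits the precision. The log2 was taken with no pseudocount, and 64 control probe sets were left out of the tests. Of the other 45037, 34945 carried 1 gene symbol in the platform annotation supplied with the table, 932 several and 9160 none. A model of the 4 group means was fitted by limma (3.58.1, under R 4.3.3) over all 45037 probe sets with no filter on level, so that every member was tested, for 5 comparisons. Gene lists used the brightest probe set of a gene, and a fold against a mean under the floor is given as a bound. Named list genes were, per list and knockout effect, the 3 largest called changes and the largest that did not pass, and likeness used the 2 nearest genes. The members and lists were chosen with earlier results of these data known. On simulated data for the knockout effect in control medium over 45037 probe sets, 58.2%, 98.5% and 100% of changes of 0.5, 1 and 2 were recovered. Those changes were put on probe sets picked from all, with noise of the same size in each group. The median SE of all probe sets was 0.0925 in that comparison, while those of the members reached 0.51 (Dab2 1420498_a_at). The recovery therefore does not carry over to the members. Alternatives were leaving out each array, a replicate block, a filter on level, an intensity trend, only the arrays compared, median centring, quantile normalization, the mean of a gene's probe sets, and a higher floor. Replicate numbers were not taken to pair samples.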

Additional observations from a re-analysis of the deposited data

Results flagged for a closer look

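The dap control transcript, which lies outside the gene probe sets, read 11.6 or more on the log2 scale on all 6 Wnt3a arrays, against at most 4.48 on the 6 control-medium arrays. The bioB control differed in the same direction, at 8.53 or more against at most 6.52. None of the endoderm genes differed between groups in its response by the test of the interaction, and groups of 3 arrays are too small for the test of a single array that stands apart.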

How the results depend on the processing

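Over the alternatives no call of the 20 probe sets reversed, and of 1795 values 1726 kept their side of the threshold, 13 lost a call and 56 gained one. The calls of the 20 numbered 1 for the knockout effect in control medium and 0 to 12 with 1 array left out, 5 with an intensity trend (4 higher and Sparc 1416589_at lower) and 2 with median centring (Gata4 1418864_at added, adjusted p = 0.0485). For the knockout effect in Wnt3a medium they numbered 1, against 0 to 1 with 1 array left out, 0 with the filter on level and 5 with only the arrays compared. For the Wnt3a effect in wild type they numbered 2, against 1 to 6 with 1 array left out, 4 with an intensity trend, 4 with median centring and 7 with only the arrays compared. For the Wnt3a effect in knockout they numbered 2, against 1 to 11 with 1 array left out and 0 with the filter. For the interaction they numbered 0 throughout. Over all probe sets the interaction had 842 calls, 226 to 1425 with 1 array left out and 1346 with an intensity trend, and the Wnt3a effect in knockout had 9938, 6235 to 10415 with 1 array left out. The filter removes probe sets under the floor, and fitting only the arrays compared removes the knockout control arrays from the error where they are not compared. Otherwise the cause was not tested. Same-numbered arrays did not deviate together (2 of 18 pairs over 0.1, r from -0.222 to 0.177), so the numbers give no pairing. With the replicate number as a block, Sox17 1429177_x_at passed for the Wnt3a effect in wild type (adjusted p = 0.0481), making 3 calls of the 20 there, and no other call of the 20 changed. With a floor at the 50th percentile (6.14), the fold of Pdgfra 1421917_at became a bound of 1.81 in place of 2.14 for the knockout effect in control medium and of 1.87 in place of 2.22 for the Wnt3a effect in wild type, and the bound of Sox17 1429177_x_at became 1.64 in place of 2.46 and 1.63 in place of 2.44 for the same effects. With the mean of a gene's probe sets, Sox7 passed for the knockout effect in control medium (adjusted p = 0.0376). Levels near the floor carry the least information.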
